A study of Mus musculus with 26 samples.

Results

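The replication-dependent histone genes supply the proteins that package newly copied DNA. In the count tables they were the rows whose symbols start with Hist1h, Hist2h, Hist3h or Hist4h. 59 rows matched, 1 of them a joined row of overlapping names that was left out, and 58 genes remained of 19549 rows: 6 of H1, 14 of H2A, 16 of H2B, 10 of H3 and 12 of H4. They were measured in macrophages sorted from PyMT mammary tumours grown in female FVB mice, aged 5 to 7 weeks at the injection of PyMT cells into a mammary gland. For each of 13 tumours, mRNA carrying at least 3 ribosomes was pooled from a sucrose gradient (polysome mRNA), and about 10 percent of the sorted cells gave total mRNA, so that there were 26 libraries. The tumours were 5 large tumours (1504 to 2245 mg) and 8 small tumours (467 to 841.8 mg), divided here at 1000 mg and numbered within each size. The labels give 2 experimental batches: batch 2 held 3 large and 3 small tumours, titled LR and ER, and batch 1 held 2 large and 5 small tumours. All mice carried a PyMT tumour and all cells were CD11b+F4/80+Ly6G- and kept in cycloheximide, which holds ribosomes on mRNA, so no macrophages without a tumour were measured here.

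Core histones H2A, H2B, H3 and H4 form the spool around which DNA is wound, and the linker histone H1 binds where the DNA enters and leaves it. Unlike other mRNAs, the mRNAs of replication-dependent histones usually end in a conserved stem-loop in place of a poly(A) tail, and the stem-loop binding protein Slbp acts in their processing and translation. They are made mainly in S phase, when DNA is copied, and some of these genes are also known to give polyadenylated transcripts in cells that do not divide. SmartSeq2, the library method named in the labels, primes cDNA on poly(A) tails. The levels below therefore count captured transcripts and need not follow the amounts of histone mRNA present. How capture acted on the values was not tested.

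The stem-loops are shown because they set these mRNAs apart from others by sequence. GENCODE M21 (GRCm38) places 49 of the 58 genes on chromosome 13, 6 on chromosome 3, 2 on chromosome 11 and 1 on chromosome 6, and gives 56 of them a single exon. The pattern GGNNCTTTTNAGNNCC, on the transcript's strand, was found after the coding part of the annotated transcript in 37 of 58 genes (63.8%), against 19 of 21819 other protein-coding genes (0.0871%) whose shortest coding transcript was searched over its whole length. In 17 of the 37 genes the annotated transcript ends within 100 bases of the stem-loop and in 20 it runs further. In the other 21 no match lies in the annotated transcript, Hist2h3b, Hist1h2ai, Hist1h3i and Hist1h2bc among them. Some of these transcripts are annotated only up to the stop codon. That of Hist1h2ai has 393 bases for a coding length of 390, and that of Hist1h3i has 411 for 408, both without the stop codon in the coding length. A stem-loop past the stop codon could not be found there, so no match does not mean that the gene lacks one. The sequences below come from the GENCODE transcripts, with the stem-loop in capitals and 5 bases on either side.
Hist1h1e: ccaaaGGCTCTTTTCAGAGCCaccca
Hist1h1c: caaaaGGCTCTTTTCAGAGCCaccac
Hist1h2ad: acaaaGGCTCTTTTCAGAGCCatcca
Hist2h2ac: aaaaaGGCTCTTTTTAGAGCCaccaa
Hist1h2bh: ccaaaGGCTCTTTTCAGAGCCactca
Hist1h3c: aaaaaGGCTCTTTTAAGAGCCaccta
Hist1h4d: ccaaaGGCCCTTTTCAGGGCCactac
Hist1h4i: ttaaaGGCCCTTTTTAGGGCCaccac
Hist1h4b: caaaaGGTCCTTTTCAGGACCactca
The form of Hist1h1e was the most frequent, in 20 genes. The form of Hist1h3c was found in 6 genes, that of Hist1h4d in 6, that of Hist1h4i in 2 and that of Hist1h4b in 2, while Hist2h2ac had a form of its own. All matches start with GG and end with CC, as the pattern requires, and they differ in the inner stem and in the last base of the loop.

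The members' DNA is so alike that reads may not be divided with certainty between copies. Of the pairs with equal coding length, 31 of 56 H2A pairs, 50 of 105 H2B pairs, 34 of 45 H3 pairs and 2 of 66 H4 pairs were at least 97% identical. Hist1h2ad and Hist1h2ag differ in 2 coding bases. Hist1h3a, Hist1h3c, Hist1h3e and Hist1h3i, singled out here, had levels within 1.15 to 1.62 times of each other in every polysome library (median 1.21). In total mRNA libraries this spread was 1.17 to 2.17 times. These genes differ from each other in 7 to 13 coding bases, and closer H3 pairs had less similar levels. Hist1h3g and Hist1h3h differ in 3 coding bases, with a median absolute log2 ratio of levels of 0.818. For Hist1h3h and Hist1h3i, which differ in 4, it was 1.825. How reads were divided between copies was not tested, so the single values of near-identical genes are uncertain. Hist2h3b differs in 19 to 25 coding bases from the other H3 genes that have a row here. Copies without a row of their own were not compared, so its values may also hold reads of other genes.

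Total counts were 7034173 to 28257436 in polysome libraries and 18018519 to 55609113 in total mRNA libraries. The macrophage genes Csf1r (488 to 12470 CPM), C1qa (1086 to 10900 CPM) and Adgre1, which encodes F4/80 (41.5 to 1052 CPM), had counts in all 26 libraries. CPM are counts scaled to library size and composition. 4 total mRNA libraries of batch 2 (small tumours 6 and 7, large tumours 3 and 4) held over 40000000 counts, and those of large tumour 3 and small tumours 6 and 7 had the lowest H3 sums of all total mRNA libraries. Results are therefore also given without these 4 tumours, which leaves 2 tumours in batch 2.

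Polysome mRNA held a larger share of histone reads than total mRNA. The members took 0.557 ± 0.245% of counts in polysome libraries (lowest 0.147%, median 0.570%, highest 0.944%) and 0.0865 ± 0.0502% in total mRNA libraries (lowest 0.0247%, median 0.0800%, highest 0.172%; SD, n = 13 each). The members were chosen for review because earlier results of these data showed this difference, so the values of polysome against total mRNA are a description, with no test. In bulk samples, fewer cells of a type and less RNA per cell cannot be told apart between tumours. This holds for the size and batch comparisons below. By summed level, H2A stood at 3882 ± 2030 CPM in polysome mRNA and 474 ± 328 CPM in total mRNA (SD, n = 13 each). H3 stood at 1316 ± 846 CPM in polysome mRNA and 144 ± 126 CPM in total mRNA. H4 stood at 578 ± 545 CPM in polysome mRNA and 59.8 ± 41.5 CPM in total mRNA. The H1 and H2B sums were closer between the RNA sources. H1 stood at 248 ± 81.0 CPM in polysome mRNA and 101 ± 53.2 CPM in total mRNA, and H2B at 91.2 ± 33.6 CPM in polysome mRNA and 55.03 ± 14.5 CPM in total mRNA. Every class sum was higher in polysome than in total mRNA of the same tumour in 13 of 13 tumours, although over all libraries the ranges of both RNA sources overlapped in each class. Summed macrophage markers (8 genes) ran from 2192 to 32270 CPM in polysome mRNA and from 6681 to 27660 CPM in total mRNA. Summed replication and S phase genes (19 genes) ran from 460 to 1019 CPM in polysome mRNA and from 798 to 1431 CPM in total mRNA. Their part in the result was not tested.

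**Figure D1:**
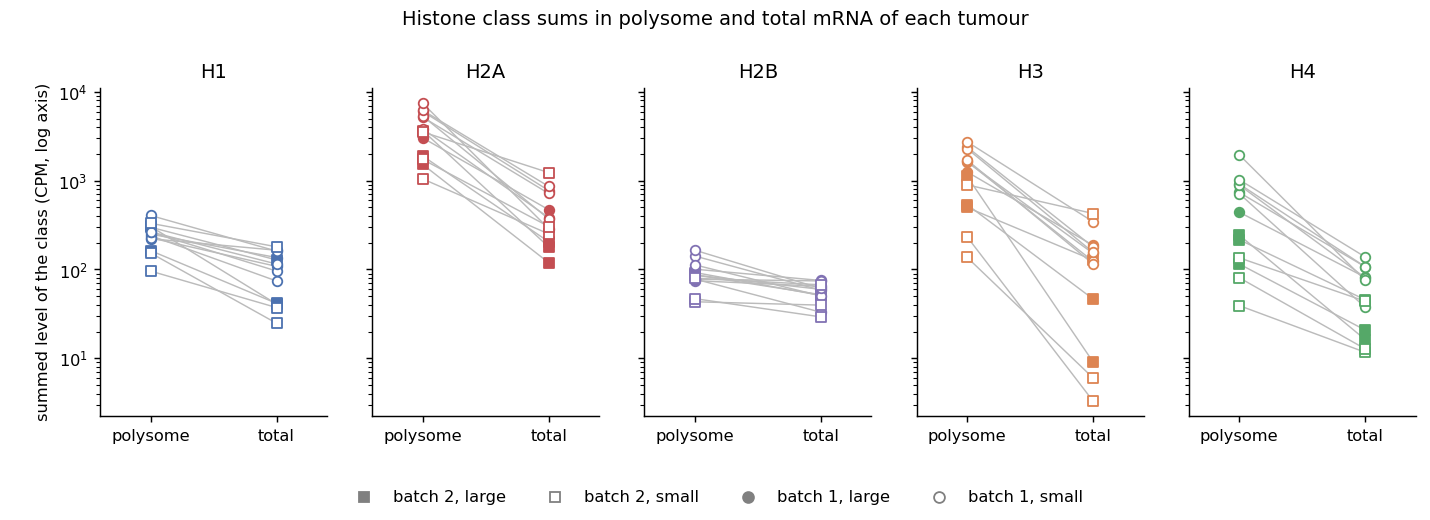
Summed level of each histone class (CPM, log axis) in polysome and total mRNA, with 1 point per library, squares for batch 2, circles for batch 1, filled for large and open for small tumours, and a line joining both libraries of a tumour. In all 13 tumours the polysome value lies above the total mRNA value, and the H3 sums in total mRNA spread from 3.29 to 426.5 CPM.

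The ratio of the polysome sum to the total mRNA sum of a tumour had a median of 13.3 for H3 (2.10 to 123), 7.78 for H2A (2.87 to 25.8), 6.89 for H4 (3.08 to 25.95), 2.52 for H1 (1.35 to 7.50) and 1.61 for H2B (1.05 to 2.70). The H3 extremes came from batch 2: 123.3 in large tumour 3, 70.92 in small tumour 7 and 22.86 in small tumour 6, against 2.104 in small tumour 8. In batch 1 the H3 ratio ran only from 6.73 to 14.8. Per kilobase of coding sequence, the summed polysome level was 9963 CPM for H2A, 3225 CPM for H3, 1870 CPM for H4, 379 CPM for H1 and 241 CPM for H2B. On that scale the H2A and H2B sums lay furthest apart. These sums count captured transcripts, so they do not give the relative amounts of histone mRNA between classes.

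Of the 58 members, 56 passed the filter on low counts. Hist1h1t, the testis-type H1 gene, had 1 count in all 26 libraries and Hist3h2ba had 17. In the fit over all genes, 49 of the 56 were past the threshold as higher in polysomes and 1 as lower, where 22.6% of the 12109 genes tested were called higher and 34% lower. Since this contrast led to the choice of the members, nothing is read from that count. Their median log2 fold of polysome over total mRNA was 2.57, against −0.34 for all genes tested. It was 2.49 in batch 2 alone and 2.53 in batch 1 alone, and 2.05 without the 4 tumours named above. Other single-exon genes had a median log2 fold of −0.16 (190 genes), and other genes with transcripts up to 1000 bases also −0.16 (515 genes). By annotated transcript end, the median log2 fold of the members was 2.62 for the 17 that end near the stem-loop, 2.48 for the 18 tested that run past it and 2.72 for the 21 with no match. The last group holds transcripts annotated only up to the stop codon, so it is not a group of genes without a stem-loop.

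**Figure D2:**
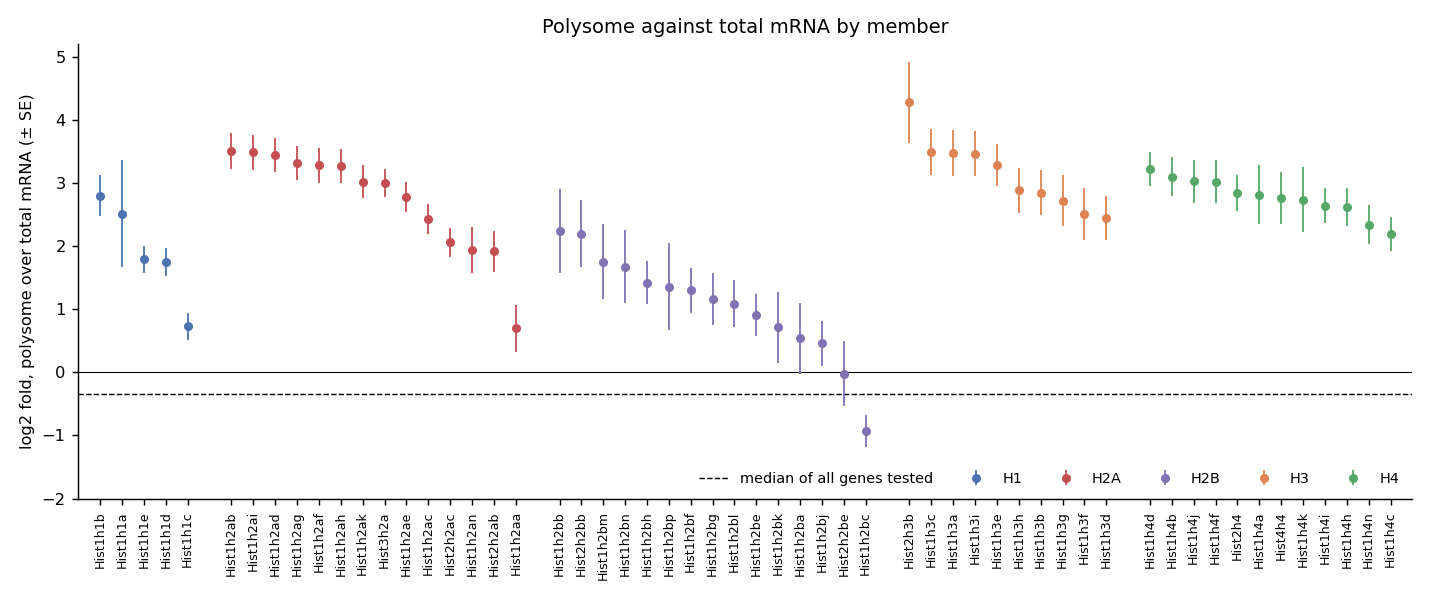
Log2 fold of polysome over total mRNA for each tested member, grouped by class, with bars of 1 SE and a dashed line at the median of all genes tested (−0.34). The H3 and H4 members all lie above 2, and the H2B members lie between −0.92 and 2.23.

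The H3 class was led by Hist2h3b, which encodes a core H3 protein on chromosome 3 (chr3:96268654-96269141, plus strand). It had 79.76, 759.2 and 1546 CPM (lowest, median, highest of 13) in polysome mRNA and 0.4348, 71 and 255.9 CPM in total mRNA. Its level was higher in polysomes in 13 of 13 tumours, but the ranges overlap, and its low total mRNA values were those of large tumour 3 (0.4348 CPM), small tumour 6 (0.928 CPM) and small tumour 7 (1.138 CPM). It made up 61.4% of the H3 polysome counts in the median library (55.4 to 67.8%), against 49.6% in total mRNA (4.79 to 63.1%). Without the 4 tumours its log2 fold was 2.83, in place of 4.28 with them. Hist1h3c, one of the near-identical H3 genes of the chromosome 13 cluster, had 10.3, 99.46 and 220.5 CPM in polysome mRNA and 0.3104, 10.44 and 33.24 CPM in total mRNA. Its copy Hist1h3i had 11.49, 114.3 and 261.7 CPM in polysome mRNA and 0.5016, 12.14 and 37.32 CPM in total mRNA. Both overlapped between the RNA sources, and their log2 folds were 2.40 and 2.34 without the 4 tumours, in place of 3.49 and 3.46.

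H2A was spread more evenly over its genes. Hist1h2ad, the highest, made up 17.4% of the H2A polysome counts in the median library (15.5 to 23.2%). It had 200.2, 667.1 and 1168 CPM in polysome mRNA and 11.2, 54.55 and 203.3 CPM in total mRNA, a log2 fold of 3.44 ± 0.27 (SE). Hist1h2ai had 191.4, 631.3 and 1112 CPM in polysome mRNA and 10.37, 49.09 and 185.2 CPM in total mRNA. Hist1h2ab had 189, 633 and 973 CPM in polysome mRNA and 9.38, 45.85 and 226.1 CPM in total mRNA. Every polysome library of Hist1h2ai lay above every total mRNA library, as it did for Hist3h2a, which was singled out after its values were seen (94.76, 300 and 463.6 CPM in polysome mRNA against 15.43, 25.86 and 85.54 CPM in total mRNA). These were 2 of 58 members without overlap, where 1.29% of all genes tested lay wholly above and 2.73% wholly below, and nothing is read from this count. The H2A folds moved less without the 4 tumours than those of H3: the class median was 2.83, in place of 3.01, and that of H3 was 2.12, in place of 3.08.

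The H4 sum spread from 39.16 to 1954 CPM over the polysome libraries. Hist1h4d, its highest member (chr13:23581598-23582735, plus strand), had 9.061, 179.7 and 876 CPM in polysome mRNA and 2.182, 12.69 and 49.19 CPM in total mRNA, a log2 fold of 3.22 ± 0.27 (SE). Hist2h4 had 3.317, 67.66 and 341.2 CPM in polysome mRNA and 1.58, 10.17 and 31.43 CPM in total mRNA. Hist1h4i had 3.367, 44.03 and 190.8 CPM in polysome mRNA and 0.6414, 4.637 and 12.73 CPM in total mRNA. All 3 overlapped between the RNA sources, and in each the lowest polysome levels were those of batch 2.

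The H1 genes, which encode linker histones, had a median log2 fold of 1.79. Hist1h1e had 32.38, 94.61 and 150.6 CPM in polysome mRNA and 6.86, 31.42 and 53.9 CPM in total mRNA, a log2 fold of 1.79 ± 0.21 (SE). Hist1h1d had 23.52, 44.29 and 81.15 CPM in polysome mRNA and 3.476, 19.71 and 32.68 CPM in total mRNA, a log2 fold of 1.75. Hist1h1c, known to be expressed also as a polyadenylated mRNA, had 27.64, 65.04 and 123.6 CPM in polysome mRNA and 7.47, 45.29 and 87.66 CPM in total mRNA. Its log2 fold was 0.73 ± 0.21 (SE), and it was higher in polysomes in 11 of 13 tumours.

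H2B held the members with the smallest folds, and the 1 member counted as lower. Hist1h2bc, which has a second exon in the annotation (chr13:23684199-23692908, plus strand) and is known to give polyadenylated transcripts, had 3.484, 9.573 and 28.05 CPM in polysome mRNA and 8.227, 20.55 and 28.1 CPM in total mRNA. It was lower in polysome than in total mRNA in each of the 13 tumours, with a log2 fold of −0.92 ± 0.25 (SE). Hist2h2be had 0, 2.886 and 8.807 CPM in polysome mRNA and 1.448, 2.647 and 4.653 CPM in total mRNA, and was higher in polysomes in 7 of 13 tumours, a log2 fold of −0.03 ± 0.51 (SE). Hist1h2bj had 2.723, 6.356 and 14.42 CPM in polysome mRNA and 2.566, 4.87 and 7.6 CPM in total mRNA, a log2 fold of 0.46 ± 0.36 (SE). Hist1h2bh, whose stem-loop is shown above, had 4.159, 10.03 and 22.82 CPM in polysome mRNA and 1.782, 3.987 and 7.034 CPM in total mRNA, a log2 fold of 1.42. Hist1h2be also has a second exon in the annotation. It had 4.605, 10.05 and 21.4 CPM in polysome mRNA and 2.09, 5.957 and 11.66 CPM in total mRNA, a log2 fold of 0.90. All H2B members overlapped between the RNA sources.

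**Figure D3:**
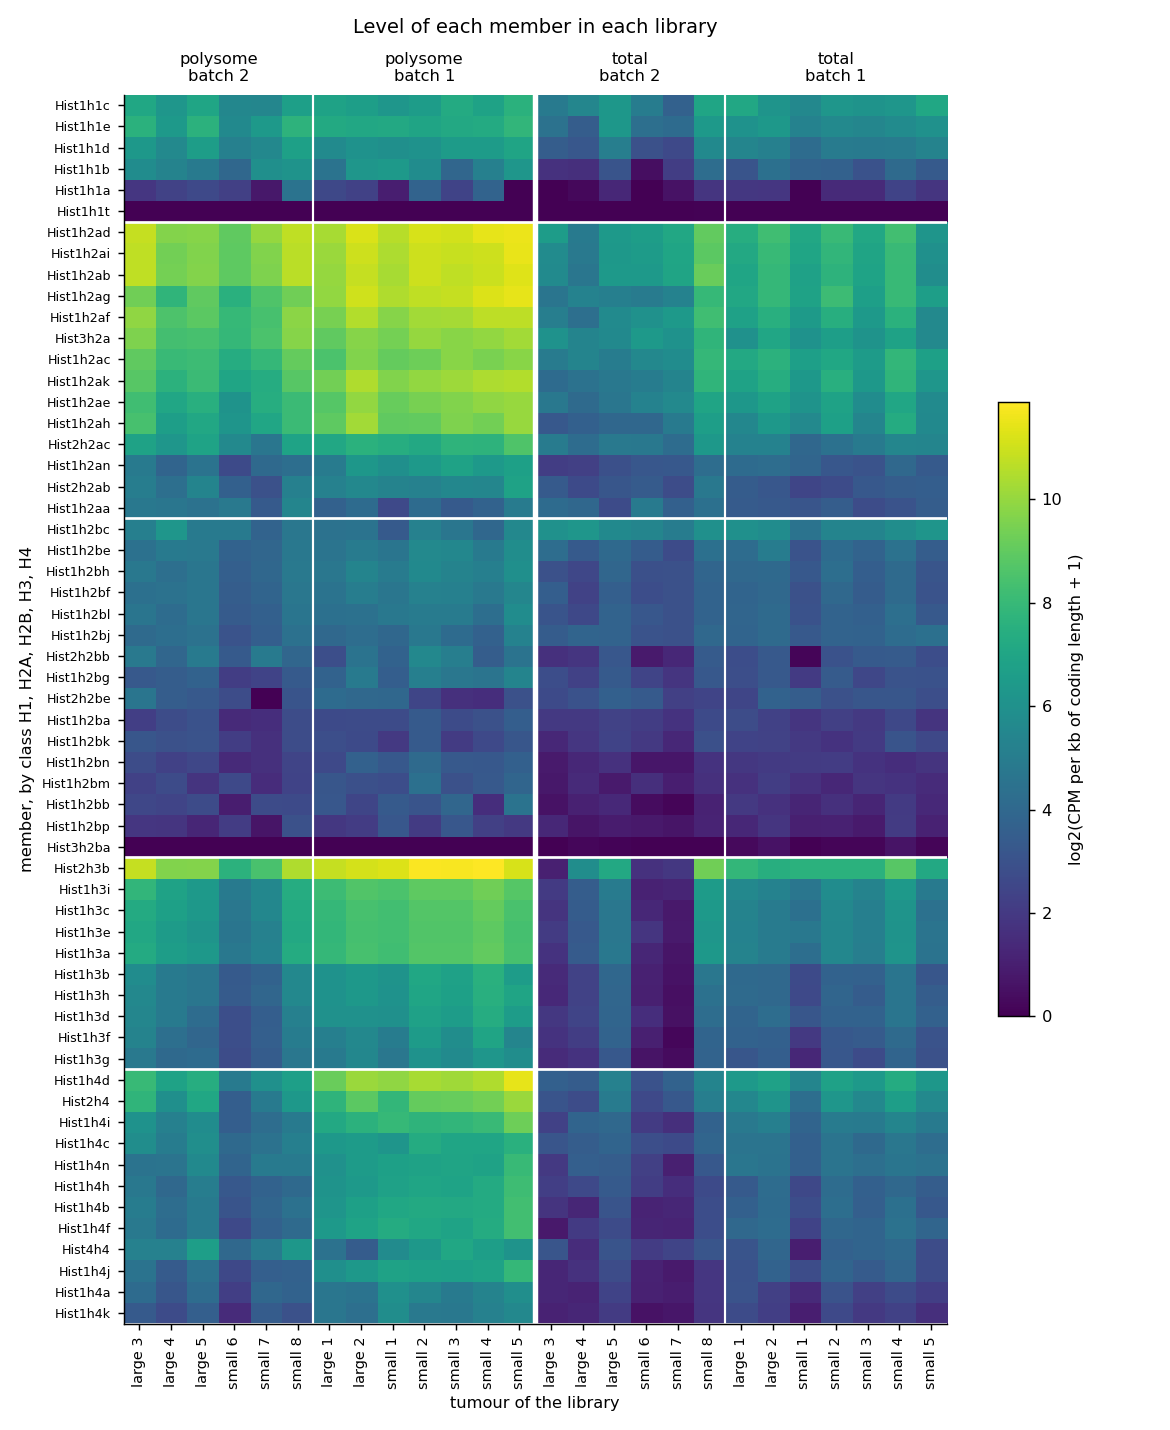
Heat map of the level of each of the 58 members (rows, by class) in each of the 26 libraries (columns, polysome then total mRNA, with batch 2 left of batch 1), as log2 of CPM per kilobase of coding length plus 1. The H3 rows are darkest in total mRNA of large tumour 3 and small tumours 6 and 7, and the H4 rows other than Hist4h4 are mostly brighter in polysome mRNA of batch 1 than of batch 2.

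Genes that act on histone mRNAs and proteins were called in both directions. Of 14 tested genes of histone mRNA processing and transcription, 1 was higher and 8 were lower in polysomes (median log2 fold −0.94). Slbp fell to 41.5 ± 18.1 CPM in polysome mRNA, against 93.2 ± 43.2 CPM in total mRNA (SD, n = 13 each), and was lower in 13 of 13 tumours, with a log2 fold of −1.13 ± 0.19 and an edgeR adjusted p of 1.378e-05. Cpsf3, the endonuclease that cuts histone pre-mRNA, had a log2 fold of −2.42 ± 0.26 (edgeR adjusted p = 2.73e-08), and Sympk, its scaffold protein, had 1.64 ± 0.21 (edgeR adjusted p = 5.448e-07). Of 17 genes of histone mRNA translation and decay, 6 were higher and 5 lower (median 0.19), with the RNA helicase Ddx19a at 2.20 ± 0.20 (edgeR adjusted p = 2.523e-09).

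Of 16 histone chaperones, 4 were higher and 10 lower in polysomes (median log2 fold −1.11). Hira, which deposits the H3.3 variant, stood at 28.7 CPM in polysome mRNA and 3.96 CPM in total mRNA, a log2 fold of 2.69 ± 0.27 (edgeR adjusted p = 8.939e-09). Hat1, which acetylates new H4, had a log2 fold of −3.06 ± 0.35 (edgeR adjusted p = 6.701e-08). The genes listed as replication-independent variants, whose mRNAs are usually polyadenylated, were divided: 4 of 10 were higher and 3 lower (median 0.29). H2afz had 270 ± 241 CPM in polysome mRNA and 647 ± 183 CPM in total mRNA (SD, n = 13 each), a log2 fold of −1.63 ± 0.19 (edgeR adjusted p = 1.129e-07). H3f3b, an H3.3 gene, stood at 679 CPM in polysome mRNA and 1639 CPM in total mRNA, a log2 fold of −1.35 ± 0.17 (edgeR adjusted p = 2.24e-07). Of 19 genes of DNA replication and S phase, 2 were higher and 11 lower (median −0.91). Pcna, the sliding clamp of DNA polymerase, stood at 47.0 CPM in polysome mRNA and 160 CPM in total mRNA, and the helicase subunit Mcm6 had a log2 fold of −2.97 ± 0.29 (edgeR adjusted p = 6.937e-09), while the licensing factor Cdt1 had 1.71 ± 0.19 (edgeR adjusted p = 6.717e-08). Over all genes tested, 22.6% were called higher and 34% lower in this contrast.

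Large and small tumours were compared in total mRNA, in polysome mRNA and in the polysome over total fold, with batch as a term. By edgeR's quasi-likelihood test no gene and no member passed the adjusted threshold in any of the 3 comparisons, so that percent called is 0 in each. At an unadjusted p under 0.05 there were 538 genes and 1 member in total mRNA, 1362 genes and 0 members in polysome mRNA, and 1385 genes and 1 member in the fold. DESeq2 called 0, 152 and 129 genes in these comparisons, and 0 members in each. No member's ranges separated by size, where 0.421% of genes tested lay wholly above and 0.146% wholly below in polysome mRNA of large tumours, and 0% and 0.00857% in total mRNA. In total mRNA the 14 H2A genes all had folds below 0 (median −0.75, against −0.03 for all genes tested), as did 6210 of 11671 genes tested. Near-identical copies may share reads and are not separate observations, so nothing is read from this count. Hist1h2ah stood at 12.2 ± 11.8 CPM in large tumours (SD, n = 5) and 26.3 ± 18.96 CPM in small tumours (SD, n = 8), a log2 fold of −1.25 ± 0.53 with an edgeR adjusted p of 0.865. In batch 2 alone that fold was −2.12 ± 0.80 and in batch 1 alone −0.43 ± 0.57. Hist1h2ak had −0.99 ± 0.56 in both batches together, −2.24 ± 0.81 in batch 2 alone and 0.11 ± 0.46 in batch 1 alone.

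In polysome mRNA the median log2 fold of the 56 members was 0.10 for large over small tumours (0.53 in batch 2 alone and −0.53 in batch 1 alone). Hist2h2be had 5.69 ± 2.14 CPM in large tumours (SD, n = 5) and 2.06 ± 1.74 CPM in small tumours (SD, n = 8), a log2 fold of 1.57 ± 0.93 with an edgeR adjusted p of 0.5004. Hist1h1c had 0.38 ± 0.36, Hist4h4 −0.71 ± 0.68 and Hist1h1a −0.79 ± 1.00. For the polysome over total fold, the H2A genes had a median of 0.57, with all 14 above 0, and the H3 genes −0.47, with all 10 below 0. Of 12109 genes tested, 5738 lay above 0 and 6371 below. As near-identical copies may share reads, nothing is read from these counts either. The members' folds use the same total mRNA libraries as the values above. Hist1h2ah had 1.17 ± 0.49 (edgeR adjusted p = 0.387), Hist1h2ak 0.81 ± 0.49, Hist1h4n −0.87 ± 0.61 and Hist4h4 −1.05 ± 0.82. None passed the threshold, which does not show that the sizes are alike.

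**Figure D4:**
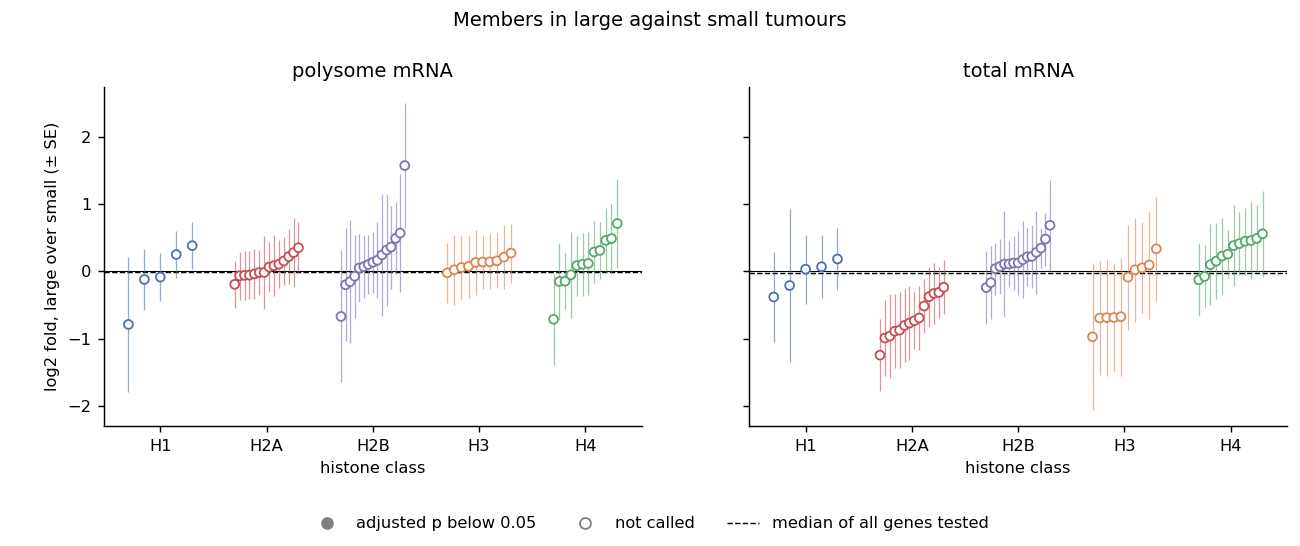
Log2 fold of large over small tumours for each tested member in polysome mRNA (left) and total mRNA (right), grouped by class, with bars of 1 SE, open circles for members not called and a dashed line at the median of all genes tested. The H2A members lie below 0 in total mRNA (median −0.75) and around 0 in polysome mRNA (median 0.02), and no member passed the threshold.

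Members of the H4, H3 and H2A classes were lower in polysome mRNA of batch 2 than of batch 1. Batch 2 was set against batch 1 within each RNA source, with size as a term, in comparisons added after the data were seen. In polysome mRNA 29 of 56 members were lower in batch 2 and 0 were higher, where 10.3% of 10933 genes tested were called lower and 11.1% higher. By class these were 11 of 12 H4 genes, 10 of 10 H3 genes and 8 of 14 H2A genes, and 0 of 5 H1 and 0 of 15 H2B genes by edgeR. At an unadjusted p under 0.05 there were 0 H1 and 2 H2B genes, where 35.0% of all genes tested had such a p. DESeq2 called 37 members lower and 0 higher, 0 of H1 and 3 of H2B among the 37, where it called 14.5% of genes lower and 13.9% higher. The class median of the log2 fold was −2.95 for H4, −1.96 for H3, −1.19 for H2A, −0.75 for H2B and −0.21 for H1, against 0.11 for all genes tested. The polysome libraries of batch 2 all lay below those of batch 1 for 10 H4, 7 H3, 6 H2A and 1 H2B genes, 24 of 58 in all, as they did for 3.77% of all genes tested, while 0 members and 4.98% of genes lay wholly above. Without the 4 tumours, 4 members were lower (Hist1h4d, Hist1h4f, Hist1h3i and Hist1h3e, all among the 29), where 0.428% of genes were called lower, and the H4 median was −2.15.

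Hist1h4d had 9.061, 34.05 and 79.45 CPM (lowest, median, highest of 6) in polysome mRNA of batch 2 and 179.7, 363.8 and 876 CPM (of 7) in that of batch 1. The batches did not overlap, and the log2 fold was −3.69 ± 0.54 (edgeR adjusted p = 0.000175; without the 4 tumours −3.05, adjusted p = 0.0211). Hist2h4 had 3.317, 21.49 and 67.66 CPM in batch 2 and 64.7, 166.8 and 341.2 CPM in batch 1, which overlap at 1 end, with a log2 fold of −3.00 ± 0.68 (edgeR adjusted p = 0.00516). Hist1h4f, Hist1h4i and Hist1h4j had log2 folds of −3.26 ± 0.48, −3.18 ± 0.50 and −3.17 ± 0.49. The exception within the class was Hist4h4, on chromosome 6, at −0.02 ± 0.68 (edgeR adjusted p = 0.990). Of H3, Hist1h3c had 10.3, 37.78 and 63.14 CPM in batch 2 and 99.46, 144.4 and 220.5 CPM in batch 1, without overlap, and a log2 fold of −2.06 ± 0.41 (edgeR adjusted p = 0.00191). Hist2h3b ran from 79.76 to 759.2 CPM in batch 2 and from 741.8 to 1546 CPM in batch 1, a log2 fold of −1.73 ± 0.48 (edgeR adjusted p = 0.0156). Of H2A, Hist1h2ae, Hist1h2ag, Hist1h2ah, Hist1h2ak and Hist1h2an fell by 2.06 to 2.25 on the log2 scale, while Hist1h2ad, Hist1h2ai and Hist1h2ab, the highest of the class, did not pass the threshold, at −0.95, −0.90 and −0.78.

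**Figure D5:**
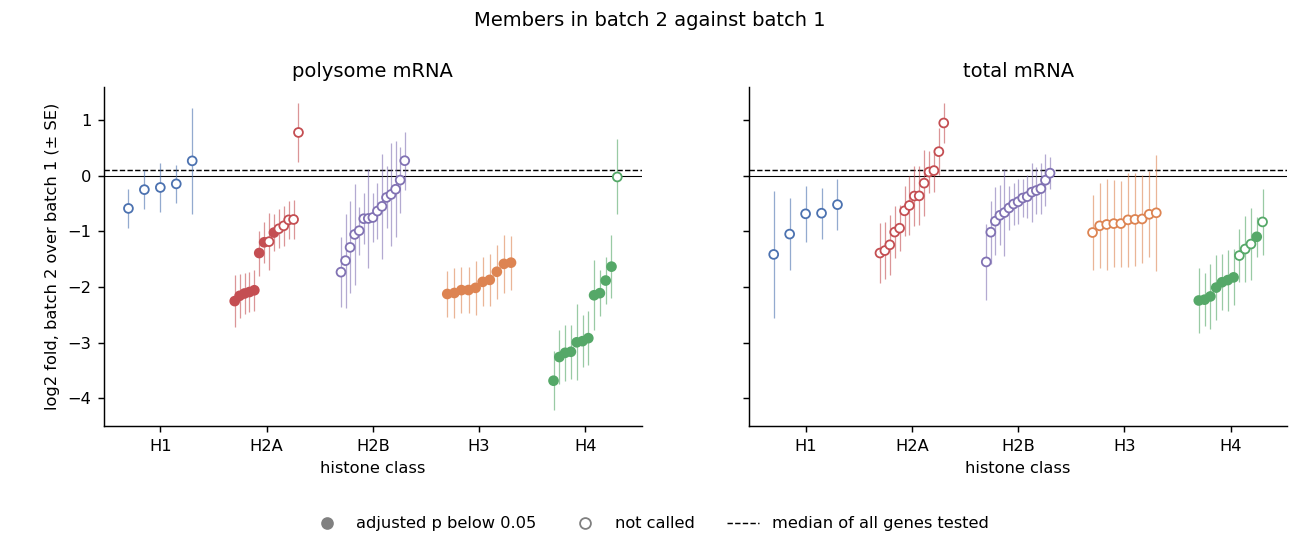
Log2 fold of batch 2 over batch 1 for each tested member in polysome mRNA (left) and total mRNA (right), grouped by class, with bars of 1 SE, filled circles for members past the threshold and a dashed line at the median of all genes tested. In polysome mRNA the class medians run from −2.95 for H4 to −0.21 for H1, and in total mRNA the H4 median is −1.85.

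In total mRNA 8 of 56 members were lower in batch 2 and 0 were higher, where 5.66% of 11671 genes tested were called lower and 11.1% higher. DESeq2 called 11 lower and 1 higher, Hist1h2aa, a testis-type H2A gene, which was also the 1 member higher at an unadjusted p under 0.05 by edgeR, where DESeq2 called 11.4% of genes lower and 15.9% higher. All 8 of edgeR's calls were H4 genes: Hist1h4b, Hist1h4c, Hist1h4d, Hist1h4f, Hist1h4i, Hist1h4j, Hist1h4n and Hist2h4, whose log2 folds lay between −2.24 and −1.10. Hist1h4d had 2.182, 3.688 and 12.61 CPM in batch 2 and 12.69, 26.76 and 49.19 CPM in batch 1, a log2 fold of −2.23 ± 0.48 (edgeR adjusted p = 0.0124). It and Hist1h4n were the 2 of 58 members whose batches did not overlap, with batch 2 below, as for 1.2% of all genes tested (1.12% lay above). The class median was −1.85 for H4 and −0.82 for H3. This count depended on single libraries: it was 25 without small tumour 8, where 7.58% of genes were called lower, 1 without small tumour 4, where 2.59% were, and 1 without small tumour 6, where 1.75% were. Without the 4 tumours it was 0, where 2.47% of genes were called lower, with an H4 median of −0.86. Without small tumour 8 the calls took in 7 H3, 6 H2A and 3 H1 genes beside 9 of H4. That tumour had the highest total mRNA level of Hist2h3b, 255.9 CPM.

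Other values moved with the batches, and their part in the result was not tested. The summed level of 19 replication and S phase genes was 460 to 769.5 CPM in batch 2 and 537 to 1019 CPM in batch 1 in polysome mRNA, and 798 to 1431 CPM in batch 2 and 884 to 1354 CPM in batch 1 in total mRNA, so that it overlapped in both. Of these 19 genes, 1 was called by edgeR in polysome mRNA, as lower in batch 2 (6 had an unadjusted p under 0.05), and in total mRNA 2 were higher and 2 lower. Slbp was higher in total mRNA of batch 2, with a log2 fold of 0.97 ± 0.25 (edgeR adjusted p = 0.0212). Summed neutrophil markers (5 genes) were 13.2 to 164.7 CPM in batch 2 and 128.1 to 452.7 CPM in batch 1 in polysome mRNA, where 1 of them was at 0 in every library of batch 1. Summed monocyte markers (4 genes) were 51.6 to 281.4 CPM in batch 2 and 14.7 to 84.3 CPM in batch 1 in polysome mRNA. Summed macrophage markers (8 genes) were 2192 to 21310 CPM in batch 2 and 11220 to 32270 CPM in batch 1 in polysome mRNA. Epithelial markers (5 genes) reached 3983 CPM in total mRNA of batch 2 and 420.8 CPM in that of batch 1. Polysome libraries held between 14315435 and 28257436 counts in batch 2, against between 7034173 and 20699272 in batch 1.

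Whether the polysome over total fold itself differed between the batches was tested in the fit over all 26 libraries. Of 56 members, Hist1h1b had a higher fold in batch 2 and Hist2h2ac a lower one, where 10.5% of 12109 genes were called higher and 6.95% lower. Hist2h2ac, an H2A gene on chromosome 3 (chr3:96220361-96220880, minus strand), had 32.1 ± 15.8 CPM in batch 2 (SD, n = 6) and 80.3 ± 33.5 CPM in batch 1 (SD, n = 7) in polysome mRNA. Its ranges there, 9.45 to 45.94 and 53.54 to 152 CPM, did not overlap, while in total mRNA it had 12.7 ± 8.94 CPM in batch 2 and 12.4 ± 4.199 CPM in batch 1. The log2 difference was −1.43 ± 0.44 (edgeR adjusted p = 0.0257). It lost the call without small tumour 6, 7 or 8 (adjusted p 0.0756, 0.0851 and 0.0730), and without the 4 tumours (−1.30, adjusted p = 0.205). Without the tumour as block the adjusted p was 0.0946. In small tumours alone the difference was −2.38 (adjusted p = 0.00250), and in large tumours alone it was −0.06 (adjusted p = 0.992), and whether these differ was not tested. Hist1h1b, a linker histone gene, had a log2 fold of polysome over total of 3.73 in batch 2 and 1.94 in batch 1, a difference of 1.80 ± 0.62 (edgeR adjusted p = 0.0449). It lost the call in 9 of the 13 fits that left out 1 tumour (large 1 to 4 and small 2, 3, 4, 6 and 7; adjusted p 0.0604 to 0.152), with voom (0.115), with RLE scaling (0.0561) and without the tumour as block (0.485). Without the 4 tumours that difference was 0.04 (adjusted p = 0.996). In that setting 7 other members were called lower instead (Hist1h3a, Hist1h3b, Hist1h3c, Hist1h3e, Hist1h3i, Hist2h3b and Hist1h4d), where 3.89% of genes were, and 0 were shared with the calls over all tumours.

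Promoters are shown for 3 members named in the batch comparisons: Hist1h4d of the H4 class, Hist1h3c of the H3 class, and Hist2h2ac of the H2A class. All 3 were lower in polysome mRNA of batch 2, and their folds were not tested against each other. They are RefSeq sequences (GRCm38.p6) from 250 bases before to 50 bases after the start, with matches to the CCAAT box, to the TATA box (TATAAA) and to the octamer ATTTGCAT on either strand in capitals.
Hist1h4d promoter, chr13:23581318-23581617, plus strand: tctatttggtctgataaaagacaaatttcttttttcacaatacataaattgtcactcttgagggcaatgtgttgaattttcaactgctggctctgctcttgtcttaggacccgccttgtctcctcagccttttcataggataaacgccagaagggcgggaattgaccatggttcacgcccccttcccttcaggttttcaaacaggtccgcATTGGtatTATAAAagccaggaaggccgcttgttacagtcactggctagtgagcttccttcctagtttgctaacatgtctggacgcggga
Hist1h3c promoter, chr13:23745472-23745771, minus strand: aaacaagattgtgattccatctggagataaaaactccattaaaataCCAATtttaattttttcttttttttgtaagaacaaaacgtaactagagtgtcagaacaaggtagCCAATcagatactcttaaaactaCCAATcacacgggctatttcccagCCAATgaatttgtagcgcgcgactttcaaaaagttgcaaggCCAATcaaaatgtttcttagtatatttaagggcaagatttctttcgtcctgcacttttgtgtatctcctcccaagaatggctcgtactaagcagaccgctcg
Hist2h2ac promoter, chr3:96220831-96221130, minus strand: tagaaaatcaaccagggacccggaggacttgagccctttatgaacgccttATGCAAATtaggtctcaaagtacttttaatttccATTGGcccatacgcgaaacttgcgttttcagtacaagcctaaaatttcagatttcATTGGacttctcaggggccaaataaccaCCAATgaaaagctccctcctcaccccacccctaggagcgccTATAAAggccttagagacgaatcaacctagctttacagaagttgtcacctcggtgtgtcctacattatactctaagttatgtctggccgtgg
Of the 58 members, 53 matched a RefSeq promoter. The CCAAT box, bound by NF-Y, lay in 45 of them (84.9%), against 37.4% of 32851 promoters in the table. It was in all 6 H1, 14 H2A, 14 H2B and 8 H3 promoters matched, and in 3 of 11 H4 promoters (27.3%), that of Hist1h4d among them. The TATA box lay in 62.3% of the members' promoters and in 13.6% of all. The octamer, known for H2B promoters, lay in 24.5% of the members' promoters and in 1.7% of all: in 7 of 14 H2A, 6 of 14 H2B, and no H1, H3 or H4 promoter matched. Windows of some H2A and H2B genes overlap on opposite strands, as for Hist1h2ah and Hist1h2bk. A match there can count for both genes, so these promoters are not all separate. Hist1h3c holds 5 CCAAT matches and no TATAAA, and Hist2h2ac holds 3 CCAAT matches, a TATAAA and an ATTTGCAT. H4, with the fewest CCAAT matches, also had the lowest batch fold, and no relation between both was tested.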

How the data were processed

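Per the labels' protocols, SmartSeq2 libraries were made from polysome and total mRNA of 13 tumours. The submitters' processing notes name mm10, limma, HISAT2 and HISAT without saying what each did. For the counting step, tool and strandedness were not given in the sources used here. The authors deposited read counts per gene, with 830 joined rows, and log2 values, which were not used.

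After filterByExpr and TMM scaling, counts were tested by edgeR 4.0.16 (R 4.3.3; quasi-likelihood, robust fit), Benjamini-Hochberg adjusted over all genes tested, threshold 0.05. Polysome against total mRNA, and how it differed by size or batch, came from 1 fit of 26 libraries with the tumour as block. Size and batch were fitted together within each RNA source. Folds are log2 with SE, and levels are TMM-scaled CPM. Both libraries of a tumour come from 1 sorted population. Their residuals correlated with a median of 0.287 within a tumour (lowest 0.001, n = 13) and −0.01 between tumours. Alternatives used DESeq2 1.42.0 and limma 3.58.1 (voom). Each tumour is a separate sample, so within an RNA source p-values measure the spread between tumours. With the tumour as block they measure the spread of the polysome over total difference from tumour to tumour. They do not measure a spread between batches.

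The members and lists were chosen with earlier results of these data known. Genes named are the 3 highest per class, the largest and smallest folds, all calls or the 5 largest, and up to 4 per list. Features singled out beyond this are named as such or stand in a full count.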

Additional observations from a re-analysis of the deposited data

Results flagged for a closer look

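Of 80 groups of libraries checked for a library far from the others, 3 had one, and chance flags about 1 in 20. Hist1h2ab stood at 226.1 CPM in total mRNA of small tumour 8, against 21.45 to 98.58 CPM in the other small tumours (gap over range 0.6231). Hist1h4i stood at 190.8 CPM in polysome mRNA of small tumour 5, against 3.367 to 82.72 CPM in the others (0.5767). Hist1h2bc stood at 28.05 CPM in polysome mRNA of large tumour 4, against 8.118 to 12.74 CPM in the others (0.7684). Between batch 2 and batch 1, the polysome over total fold differed by 1.798 (log2) for Hist1h1b and by −1.427 for Hist2h2ac. The joined row of Hist1h4m and Hist1h4n, outside the comparisons, stood at 39.46 ± 37.5 CPM in polysome mRNA and 5.44 ± 3.62 CPM in total mRNA (SD, n = 13 each). In polysome mRNA it ran from 3.961 to 16.52 CPM in batch 2 and from 31.08 to 137.9 CPM in batch 1, without overlap.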

How the results depend on the processing

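The median log2 fold of polysome over total mRNA, 2.57 over the members, stayed between 2.34 and 2.72 when each tumour was left out in turn. The counts of members called by tumour size were 0 in every such case (0 to 0). For the batches, members lower in polysome mRNA numbered 29, and 23 to 33 with a tumour left out. They numbered 4 without the 4 tumours with deep total libraries, a setting chosen after the data were seen. Of all genes tested, 10.3% were called lower in polysome mRNA, 6.42 to 12.3% with a tumour left out and 0.428% without the 4 tumours. In total mRNA the members called lower numbered 8, 1 to 25 with a tumour left out, 2 at a mean of at least 10 CPM, 23 with voom and 0 without those 4 tumours. Of all genes tested, 5.66% were called lower there, and 1.75 to 9.44% with a tumour left out. The share was 9.14% at 10 CPM, 9.57% with voom and 2.47% without the 4 tumours. For the polysome over total fold the count was 2, 0 to 4 with a tumour left out, 1 with RLE scaling, 7 with DESeq2, 1 with voom, 13 in small tumours alone, 0 in large tumours alone and 7 without the 4 tumours. Of all genes tested, 17.4% were called in that comparison, 11.5 to 18.5% with a tumour left out, 17.5% with RLE and 25.8% with DESeq2. The share was 19.7% with voom, 15.9% in small tumours, 0.574% in large tumours and 6.78% without the 4 tumours. In small tumours alone all 13 members called were lower in batch 2, where 7.48% of genes were called lower. Without the tumour as replicate block the count of members was 0 (13.3% of genes), and the block changed no call by tumour size. The fold of Hist2h2be changed sign in 15 settings (0.013 to 0.934), and no called result reversed in the settings run. The cause of these changes was not tested. Copies of near-identical sequence, an unknown strand setting and 2 to 5 tumours per size in a batch limit the values of single genes.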
